A study of Mus musculus and Rattus norvegicus with 36 samples.

Results

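The genes described here are 33 autism risk genes that code neither for subunits of the BAF chromatin remodeling complex nor for CHD remodelers, chosen by symbol and followed through oligodendrocyte precursor cells (OPCs). All 33 had a row in the table of acutely isolated mouse OPCs and in both tables of cultured mouse OPCs, and 32 had one in the rat tables, where Auts2 had no row under that symbol. A gene was tested in a table where at least 3 libraries held a value of 10 or more. That left 33 of 33 members among 13985 genes in the acute table, 32 among 14894 in the mouse mPFC culture table (Tbr1 fell below the limit), 33 among 14933 in the mouse hippocampus culture table, and 32 among 12481 and 32 among 12465 in the rat GABA and rat glutamate tables. The whole series lists 32708 distinct symbols.

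Expression was measured by poly-A RNA sequencing in 36 libraries, 3 in each of 12 groups. The knockout OPCs came from mice of genotype Pdgfralpha-CreER;Baf155-flox/flox, labelled mPFC (medial prefrontal cortex) or Hippocampus, and were purified by immunopanning and lysed without culture. Their controls, from the same 2 labelled regions, were Baf155-flox/flox mice, so both genotypes carried the floxed alleles and the controls differed by having no Cre. Baf155 is the product of Smarcc1, a scaffold subunit of the BAF complex. CreER is a recombinase that needs tamoxifen, and the Pdgfra promoter is active in OPCs and also in some other cell types. The labels give neither the age of the mice nor the inducing treatment, and the dissection text speaks of cortex where the sample labels say mPFC. The other groups were wild-type OPCs grown for 2 days in proliferation medium. GABA at 200 µM for 24 h was set against untreated cultures in mouse mPFC, mouse hippocampus and rat cortex OPCs, and glutamate at 200 µM for 24 h against a separate untreated group of rat cortex OPCs. No label says that libraries of a group came from separate animals or cultures, so p-values measure the spread between these libraries, which may be technical.

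Rare damaging variants in these genes raise the likelihood of autism, and the genes fall into a few kinds. Many act in the nucleus: histone methyltransferases and demethylases (Ash1l, Kmt2a, Kmt2c, Kdm5b, Kdm6b), proteins that read or assemble chromatin (Phf21a, Pogz, Adnp) and sequence-specific transcription factors (Tcf4, Tbr1, Myt1l, Foxp1). Others restrain growth signaling (Tsc1, Tsc2, Nf1), tag proteins for turnover (Cul3, Trip12), or hold neurons and synapses together (Shank2, Shank3, Ank2, Cntnap2, Dscam, Reln). OPCs are the dividing precursors of the myelin-forming oligodendrocytes and also receive synaptic input through GABA and glutamate receptors, so genes best known from neurons can be read in them.

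Values are read counts scaled by the authors, and sum to 16.63 to 20.31 M per library. Several features of the libraries bear on every result. Smarcc1 had 2378, 2368 and 2649 in the knockout libraries labelled mPFC, against 3814, 3911 and 3915 in the controls of that label, and 1631, 1569 and 1510 in the knockout libraries labelled hippocampus, against 4514, 4419 and 4454 in the controls. All 16 OPC markers were detected in every acute group, with summed values of 236300 to 248600 in knockout libraries and 277500 to 287100 in control libraries. Summed neuron markers were 3823 to 4271 in knockout and 4446 to 4907 in control libraries, and none of the 16 was at 0. Astrocyte markers summed to 28640 to 35650 in knockout and 25830 to 26440 in control libraries. RNA of 4 Y-linked genes, chosen after their values were seen (Ddx3y, Eif2s3y, Kdm5d and Uty), summed to 1639 to 1968 in knockout libraries and to 482 to 937 in control libraries, so the amount of Y-linked RNA and the genotype cannot be told apart in this design. No member lies on a sex chromosome. Knockout library 3 labelled mPFC and control library 3 labelled hippocampus differed from their group partners by 8.37 to 15.99 times counting noise (chi-square per degree of freedom over genes), against 1.22 to 5.70 for the other 32 replicate pairs.

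The region labels of the acute controls went against region markers. Nr2f2, a transcription factor more abundant in hippocampal cells, had 389, 428 and 364 in knockout libraries labelled hippocampus and 136, 125 and 151 in those labelled mPFC, but 128, 138 and 159 in controls labelled hippocampus and 344, 351 and 349.9 in controls labelled mPFC. Zic1 and Prox1 turned the same way: hippocampus minus mPFC was 0.96 and 0.38 on the log2 scale in knockouts, and −1.30 and −0.39 in controls. Emx2 and Zbtb20 did not differ past the threshold. Among the neocortical markers, Rorb (0.51) and Cux2 (0.19) were higher and Fezf2 (−1.78) and Neurod6 (−2.34) lower in controls labelled hippocampus than in those labelled mPFC, so these 4 did not all point one way. In the untreated cultures the same difference was 3.60 for Nr2f2 and 1.01 for Prox1, and −0.46 for Zic1. The knockout effect averaged over both regions is the same whichever control group belongs to which region, so it is given first for every member. Effects within a region are given as labelled. For members whose region values are printed, the effects with the 2 control groups exchanged follow where a call changes.

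**Figure D1:**
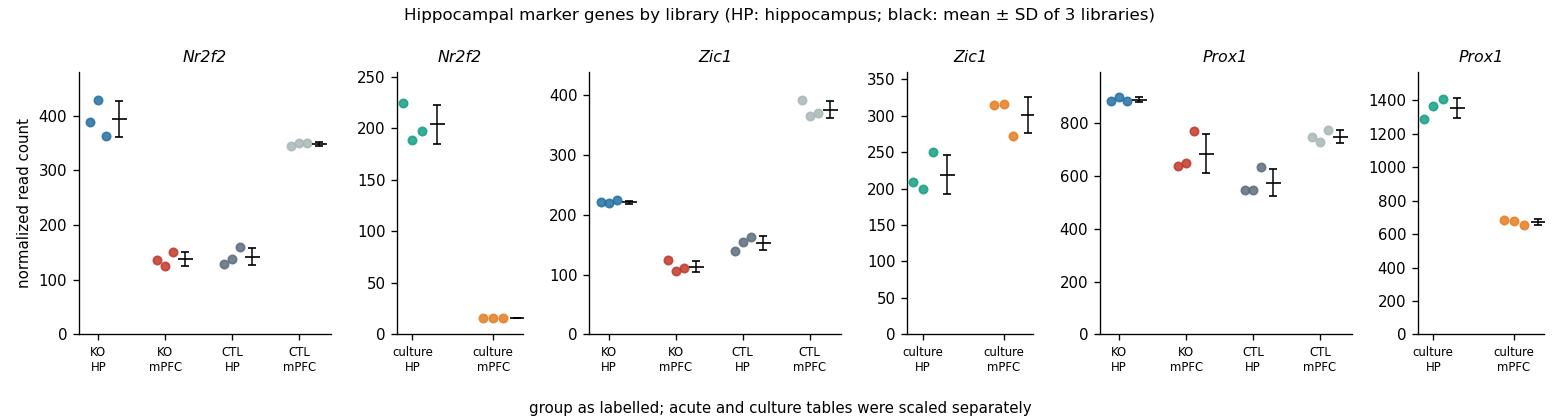
Normalized read counts in each library of 3 genes listed beforehand as hippocampal markers, by labelled group. Acute knockouts and controls are in the wide panels and untreated cultures in the narrow panels (points are libraries, black is mean ± SD, n = 3). Nr2f2, Zic1 and Prox1 are higher under the hippocampus label in knockouts and lower under that label in controls. In the untreated cultures Nr2f2 and Prox1 are higher and Zic1 is lower in hippocampus than in mPFC.

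Levels of the members, taken per kb of annotated exon in the acute table (GENCODE M21), covered about 3 orders of magnitude. Ctnnb1, which codes for β-catenin, was the most abundant at 3789 ± 124 per kb in knockout and 3998 ± 62.0 per kb in control libraries (SD, n = 6 each). Adnp and Dscam followed at 900 ± 22.7 and 657 ± 11.6 per kb in knockout libraries, against 980.3 ± 37.9 and 681 ± 28.0 in controls. The 3 lowest in controls were Tbr1 (2.26 ± 0.899 in knockout, 3.89 ± 2.19 in control), Myt1l (3.54 ± 0.627 in knockout, 4.98 ± 1.02 in control) and Reln (10.2 ± 1.27 in knockout, 3.93 ± 0.420 in control). In knockouts Cntnap2 (6.37 ± 1.04) and Foxp1 (8.49 ± 0.712) lay below Reln. Neighbours in that order overlapped within their spread at the low end, among them Tbr1 and Myt1l in both genotypes. The median member had 156 per kb in controls, against 132 per kb over the 13562 tested genes with a gene model. Members are long genes, with a median of 125.5 kb against 25.5 kb for those genes, and Cntnap2 reaches 2244.9 kb (chr6:45059357-47304213, plus strand, GRCm38). Reln lies at chr5:21884454-22344702 on the minus strand, Ank2 at chr3:126921612-127499350 and Dscam at chr16:96590840-97170752, both also on the minus strand. Kdm5b lies at chr1:134560171-134635285 and Shank2 at chr7:144001928-144424494 on the plus strand.

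Promoter windows from RefSeq (GRCm38.p6, 250 bases before to 50 after the annotated start) matched 26 of the 33 members with 42 windows. The 4 below are shown because their genes kept the same direction and passed the test in both regions under either assignment of the controls. Shank2, higher in knockouts, met the same rule but matched no window. Of the 4 shown, Reln was higher in knockouts, and Kdm5b, Phf21a and Pogz were lower. Capitals mark the GC box GGGCGG on either strand, a letter pattern bound by Sp-family factors, and each line runs 5′ to 3′ on the gene's own strand.
Reln (chr5:22344656-22344955, minus strand): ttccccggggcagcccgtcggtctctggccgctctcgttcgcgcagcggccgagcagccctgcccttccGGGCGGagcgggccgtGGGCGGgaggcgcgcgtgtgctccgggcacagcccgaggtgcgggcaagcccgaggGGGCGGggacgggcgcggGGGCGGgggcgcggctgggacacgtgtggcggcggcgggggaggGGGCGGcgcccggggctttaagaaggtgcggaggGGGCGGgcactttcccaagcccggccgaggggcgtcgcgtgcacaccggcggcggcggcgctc
Kdm5b (chr1:134559928-134560227, plus strand): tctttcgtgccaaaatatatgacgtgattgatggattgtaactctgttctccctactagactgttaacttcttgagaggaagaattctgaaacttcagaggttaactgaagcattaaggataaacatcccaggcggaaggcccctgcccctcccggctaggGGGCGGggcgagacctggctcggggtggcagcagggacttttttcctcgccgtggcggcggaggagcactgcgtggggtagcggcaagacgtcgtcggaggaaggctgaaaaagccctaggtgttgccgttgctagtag
Phf21a (chr2:92185233-92185532, plus strand, the first of 2 windows): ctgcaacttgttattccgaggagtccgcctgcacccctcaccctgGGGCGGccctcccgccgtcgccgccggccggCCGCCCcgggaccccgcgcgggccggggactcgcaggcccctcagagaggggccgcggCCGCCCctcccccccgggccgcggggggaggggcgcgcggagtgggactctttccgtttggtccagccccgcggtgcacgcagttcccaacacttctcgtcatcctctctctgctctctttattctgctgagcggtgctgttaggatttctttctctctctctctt
Pogz (chr3:94837187-94837486, plus strand): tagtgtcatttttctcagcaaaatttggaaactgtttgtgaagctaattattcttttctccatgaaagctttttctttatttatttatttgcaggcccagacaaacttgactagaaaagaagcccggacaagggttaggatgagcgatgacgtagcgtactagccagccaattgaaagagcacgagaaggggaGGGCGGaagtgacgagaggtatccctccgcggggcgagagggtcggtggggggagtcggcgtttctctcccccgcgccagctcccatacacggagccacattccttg

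The Reln window held 6 GC boxes and 47 CpG dinucleotides, the Phf21a window 3 and 31, the Kdm5b window 1 and 17, and the Pogz window 1 and 16. A GC box occurred in 22 of the 42 member windows and in 35.7% of all 32851 windows. All patterns were searched on both strands, and neighbouring matches of different patterns can share letters. The EGR pattern GCGTGGGCG was in 2 of the 42 windows and in 0.612% of all windows, the TATA box TATAAA in 3 and in 13.6%, and the E-box CACGTG in 3 and in 7.15%. The AP-1 pattern TGANTCA was in 0 of the 42 windows and in 7.81% of all windows, and the CRE pattern TGACGTCA in 0 and in 1.79%. These are matches of letters in the reference and say nothing about binding in these cells.

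In the knockout, averaged over both regions, 9 members rose, 12 fell and 12 did not pass the test, which is 63.6% called against 54.4% of all tested genes, of which 26.9% rose and 27.5% fell (limma-trend on log2(value + 1), Benjamini-Hochberg adjusted p below 0.05 over all genes, here and throughout). The share called was therefore close to that of the whole table, and the members' median log2 fold change was −0.04 against −0.01 over all genes. Within the labelled regions, 10 rose and 8 fell for mPFC (54.5% called against 47.4% of all genes, 24.1% higher and 23.2% lower), and 4 rose and 10 fell for hippocampus (42.4% against 42.6%, 21.7% higher and 21.0% lower). As labelled, Reln, Shank2, Kmt2c and Naa15 rose in both regions and Adnp, Cntnap2, Kdm5b, Phf21a and Pogz fell in both. With the control groups exchanged as well, 2 of the risers (Reln and Shank2) and 3 of the fallers (Kdm5b, Phf21a and Pogz) passed in all 4 contrasts. These contrasts reuse the same libraries. The share of all tested genes that passed in both regions or in all 4 contrasts was not counted, so these counts do not set the members apart. As labelled, knockout and control values did not overlap for 22 of 33 members in mPFC and 20 of 33 in hippocampus. Over all tested genes the groups were apart for 54.2% and 54.7%. In bulk samples, fewer cells of a type and less RNA per cell cannot be told apart. With both distant libraries left out, an alternative chosen after seeing the data, 10 members rose and 14 fell in the average, against 62.3% of all genes called in that fit. Of the 21 original calls 19 were among them, and Auts2 and Tbr1 no longer passed (adjusted p = 0.0518 and 0.0536).

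**Figure D2:**
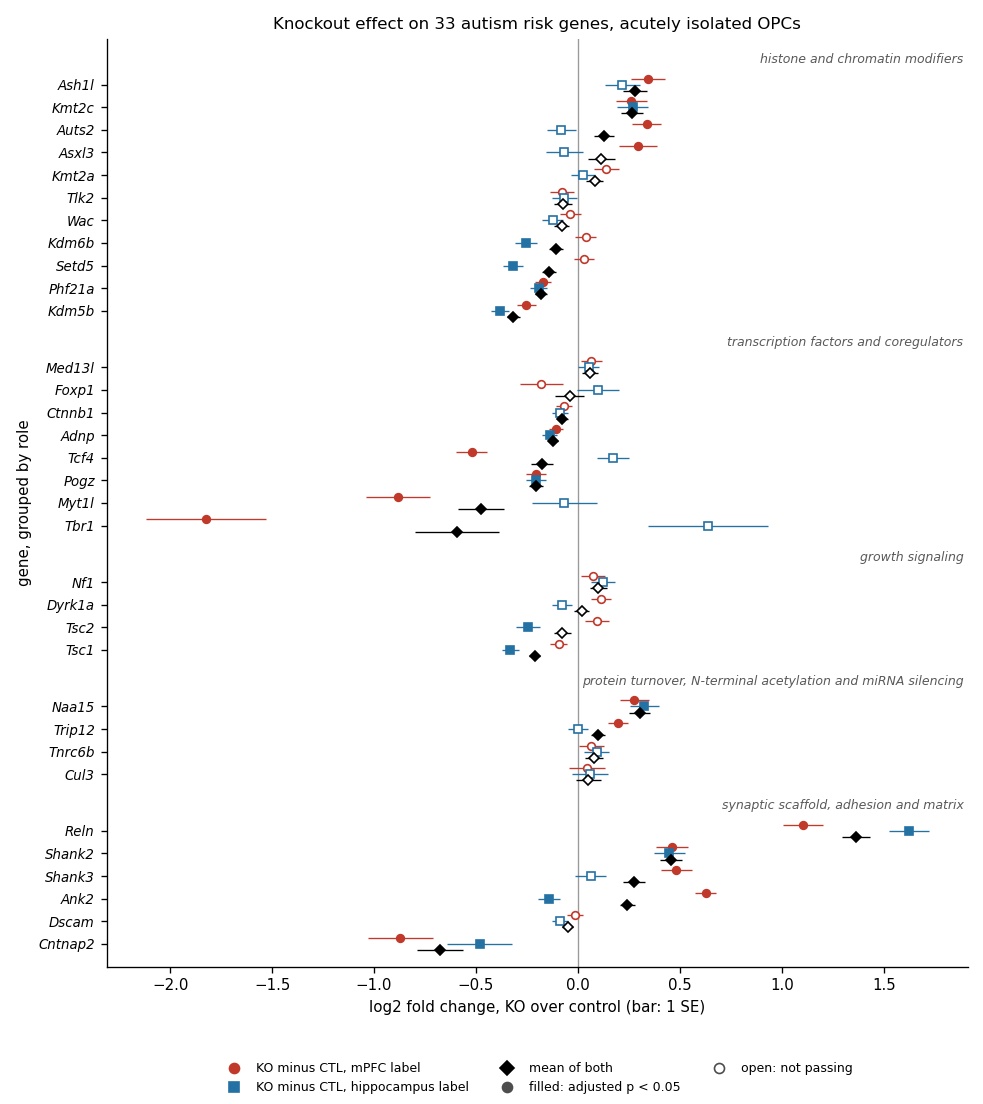
Log2 fold change of each of the 33 genes, knockout over control, as labelled for mPFC (red circles) and hippocampus (blue squares) and averaged (black diamonds), grouped by role, with bars of 1 standard error and filled symbols for adjusted p below 0.05. Among the averages, Reln lies farthest to the right at 1.36, and Cntnap2, Tbr1 and Myt1l farthest to the left at −0.68, −0.59 and −0.47.

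Among the 6 genes of synaptic scaffolds, adhesion and matrix, 4 rose (Reln, Shank2, Shank3 and Ank2), Cntnap2 fell and Dscam did not pass in the average. For this and the roles below, the shares over all tested genes in the average were 26.9% higher and 27.5% lower. Whether a role differs from other genes was not tested. Reln codes for reelin, a secreted matrix glycoprotein that guides neuronal positioning. It had 213, 216 and 218 in knockout libraries labelled mPFC and 249.8, 279 and 275 in those labelled hippocampus, against 98.7, 98.0 and 103 in controls labelled mPFC and 92.8, 92.7 and 74.5 in controls labelled hippocampus. Every knockout library was above every control library. The averaged log2 fold change was 1.36 (SE 0.069, adjusted p = 6.08e-10), a 2.57-fold higher value in knockouts. Reelin is also made by some GABAergic neurons. Gad1, a marker of those, averaged 296 in knockouts against 95.5 in controls labelled mPFC, and 104 in knockouts against 345 in controls labelled hippocampus. With the controls exchanged, the knockout means of 296 and 104 stand against 345 and 95.5. The part of such neurons in the Reln values was not tested. Of the 6 other genes in a list of the reelin pathway, the receptor gene Vldlr (0.45) and the adaptor gene Dab1 (0.12) rose in the average and 4 did not pass.

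Shank2 and Shank3 code for scaffold proteins of the postsynaptic density and behaved differently between the labels. Shank2 had 556, 498 and 529.9 in knockout libraries labelled mPFC and 529.5, 531 and 596 in those labelled hippocampus, against 396, 397 and 357 and 397, 439.9 and 378 in the controls of those labels. Its groups did not overlap in either region, and its averaged log2 fold change was 0.45 (SE 0.054, adjusted p = 6.32e-06). Shank3 had 632, 612 and 526 in knockouts against 425, 419 and 418 in controls labelled mPFC, where the groups were apart (log2 fold change 0.48, adjusted p = 0.000116). For hippocampus the 3 knockout values of 551, 532 and 556 lay within the control range of 519, 571 and 483 (0.06, adjusted p = 0.536), and with the controls exchanged Shank3 passed for hippocampus (0.38) and its mPFC call was lost.

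Ank2, the gene for ankyrin-B, which links membrane proteins to the spectrin skeleton, was the one member called in opposite directions. It had 6750, 6695 and 7756 in knockouts and 4493, 4609 and 4597 in controls labelled mPFC, with no overlap (log2 fold change 0.63, SE 0.052, adjusted p = 1.95e-07). Under the hippocampus label it had 5790, 5818 and 5645 in knockouts and 6175, 6327 and 6534 in controls (−0.14, adjusted p = 0.0389), a call lost on leaving out any of 5 of the 6 libraries. With the controls exchanged Ank2 rose in both regions, by 0.15 and 0.33. Cntnap2, a neurexin-family adhesion protein and the longest member gene, had 65.9, 59.3 and 86.1 in knockouts against 122, 134 and 128 in controls labelled mPFC, and 58.8, 58.3 and 63.2 in knockouts against 84.9, 68.1 and 103 in controls labelled hippocampus. Knockout values were below the controls of their own label in both regions, and the averaged log2 fold change was −0.68 (SE 0.112, adjusted p = 0.00014). Its hippocampus call (−0.48) was lost without any 1 of 4 libraries, and its mPFC call was lost with the controls exchanged. Dscam, an adhesion molecule of neurite self-avoidance, had an averaged log2 fold change of −0.05 (adjusted p = 0.117).

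**Figure D3:**
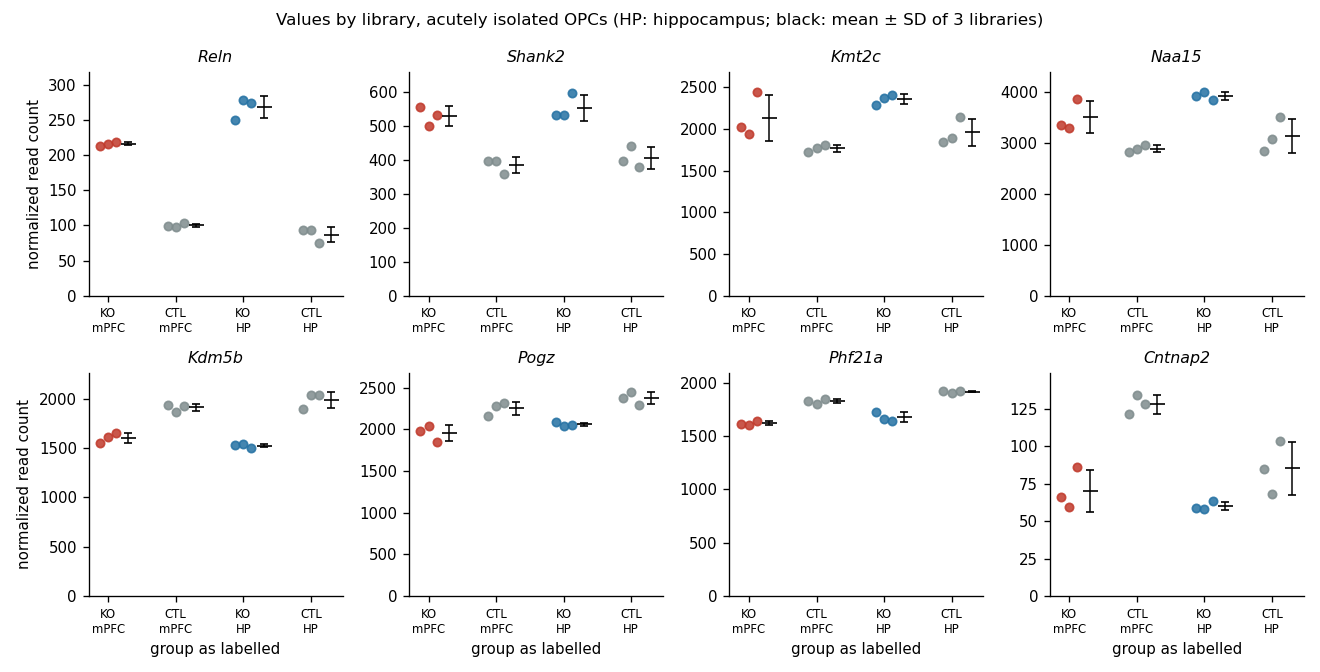
Normalized read counts in each acute library for 8 members, with knockout groups (colored) left of the control group of the same label (grey), and mean ± SD of 3 libraries in black. Reln and Shank2 are higher and Kdm5b, Pogz and Phf21a lower in knockouts beside either control group; knockout library 3 labelled mPFC is the highest of its group for Kmt2c, Naa15 and Cntnap2.

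Of the 11 histone and chromatin modifiers, 3 rose (Ash1l, Kmt2c and Auts2), 4 fell (Kdm5b, Phf21a, Setd5 and Kdm6b) and 4 did not pass in the average. Kdm5b removes methyl groups from lysine 4 of histone H3, the mark of active promoters. It had 1548, 1612 and 1649 in knockouts against 1939, 1867 and 1928 in controls labelled mPFC, and 1530, 1541 and 1505 in knockouts against 1897, 2037 and 2034 in controls labelled hippocampus. No knockout library reached the lowest control, and the averaged log2 fold change was −0.32 (SE 0.032, adjusted p = 1.1e-06). Kdm6b, which acts on lysine 27 of histone H3, had 1878, 1848 and 1688 in knockouts against 1783, 1732 and 1752 in controls labelled mPFC, which overlapped, and 1809, 1758 and 1798 in knockouts against 2240, 2145 and 2020 in controls labelled hippocampus, which did not (−0.26, adjusted p = 0.00119). With the controls exchanged Kdm6b fell for mPFC (−0.24, adjusted p = 0.00176) and did not pass for hippocampus (0.03, adjusted p = 0.703). Its averaged fall of 0.11 on the log2 scale was lost without knockout library 5 or control library 1 labelled hippocampus.

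The methyltransferase genes Kmt2c and Kmt2a, both acting on lysine 4 of histone H3, differed in call. Kmt2c had 2022, 1937 and 2446 in knockouts against 1726, 1777 and 1811 in controls labelled mPFC, and 2291, 2378 and 2406 in knockouts against 1844, 1896 and 2145 in controls labelled hippocampus. Within each label all knockout values exceeded the controls, with an averaged log2 fold change of 0.27 (SE 0.054, adjusted p = 0.000768). Exchanging the controls ended the Kmt2c call for mPFC (0.12, adjusted p = 0.241), and its hippocampus call as labelled was lost without control library 1. Kmt2a had 2171, 2151 and 2403 in knockouts against 1919, 2072 and 2110 in controls labelled mPFC, and 2273, 2198 and 2279 in knockouts against 2080, 2158 and 2407 in controls labelled hippocampus (averaged 0.08, adjusted p = 0.121). Whether the 2 genes differ in their response was not tested. Ash1l, a methyltransferase of lysine 36 of histone H3, rose by 0.28 in the average (adjusted p = 0.00116).

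Phf21a, a reader of unmethylated lysine 4 of histone H3, and Setd5, a SET-domain protein, were both lower. Phf21a had 1616, 1603 and 1642 in knockouts against 1831, 1803 and 1845 in controls labelled mPFC, and 1728, 1658 and 1638 in knockouts against 1917, 1906 and 1920 in controls labelled hippocampus. The groups did not overlap, and the averaged log2 fold change was −0.18 (SE 0.029, adjusted p = 9.07e-05). Setd5 had 4984, 4916 and 5592 in knockouts against 5161, 4905 and 5080 in controls labelled mPFC (0.03, adjusted p = 0.624), and 4975, 4842 and 4861 in knockouts against 6051, 6120 and 6133 in controls labelled hippocampus (−0.32, adjusted p = 0.000102). With the controls exchanged its fall lay in mPFC (−0.24) and not in hippocampus. Auts2, tied to a Polycomb complex, rose by 0.13 in the average, a call lost without any 1 of 9 of the 12 libraries. Asxl3, Tlk2 and Wac did not pass (0.11, −0.07 and −0.08).

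Among the 8 transcription factors and coregulators none rose in the average, 6 fell (Adnp, Pogz, Tcf4, Myt1l, Tbr1 and Ctnnb1), and Foxp1 and Med13l did not pass. Of all tested genes 26.9% rose and 27.5% fell, and a group of 8 is small beside them. Pogz, a zinc finger protein with a transposase-derived domain, had 1976, 2039 and 1846 in knockouts against 2165, 2274 and 2312 in controls labelled mPFC, and 2082, 2042 and 2050.0 in knockouts against 2381, 2448 and 2297 in controls labelled hippocampus. Every knockout library was below every control library (averaged log2 fold change −0.21, SE 0.034, adjusted p = 0.000132). Adnp, a homeobox protein that binds chromatin remodelers, fell by 0.12 (SE 0.026, adjusted p = 0.000945). Ctnnb1 fell by 0.08 (adjusted p = 0.0249), a call lost without any 1 of 4 libraries. The annotation places 14.6% of its exon length on the opposite strand of Ulk4 exons, and no strand setting is given. Ulk4 was listed in the acute and the mouse culture data, so this limit holds for Ctnnb1 in both.

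Tcf4, the basic helix-loop-helix factor of the oligodendrocyte and neuronal lineages, was called for one label only. It had 7498, 7385 and 9021 in knockouts against 11250, 11110 and 11840 in controls labelled mPFC (log2 fold change −0.52, adjusted p = 7.4e-05), and 10980, 11020 and 11250 in knockouts against 9220, 9235 and 11220 in controls labelled hippocampus (0.17, adjusted p = 0.0935). The highest value in its group came from a distant library both in the knockouts labelled mPFC and in the controls labelled hippocampus. With the controls exchanged the fall was −0.31 in mPFC, and Tcf4 did not pass for hippocampus. Its averaged fall of 0.18 passed (adjusted p = 0.0146).

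Myt1l and Tbr1 are transcription factors of neurons and were near the low end of detection. Myt1l had 39.3, 42.5 and 49.7 in knockouts against 75.5, 86.9 and 81.7 in controls labelled mPFC, with no overlap (−0.88, adjusted p = 0.00035), and 59.7, 60.4 and 46.4 in knockouts against 60.2, 48.3 and 66.2 in controls labelled hippocampus, which overlapped (−0.07, adjusted p = 0.762). Tbr1 had 7.87, 7.90 and 9.12 in knockouts against 31.2, 34.4 and 30.3 in controls labelled mPFC (−1.83, adjusted p = 0.00014), and 19.9, 13.8 and 15.8 in knockouts against 13.8, 5.92 and 12.4 in controls labelled hippocampus (0.64, adjusted p = 0.0936). With the controls exchanged both calls moved to the other label: Myt1l was −0.40 for mPFC (adjusted p = 0.0593) and −0.55 for hippocampus (adjusted p = 0.0101), and Tbr1 −0.26 (adjusted p = 0.513) and −0.93 (adjusted p = 0.0177). Neuron markers went both ways. Of 15 tested, 7 were higher and 5 lower for mPFC as labelled, against 24.1% and 23.2% of all tested genes. For hippocampus as labelled 3 were higher and 7 lower, against 21.7% and 21.0%. In the average 2 were higher and 7 lower, against 26.9% and 27.5%. The part of neuronal RNA in the values of Myt1l and Tbr1 was not tested.

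In the growth signaling group, Tsc1 fell in the average and Tsc2, Nf1 and Dyrk1a did not pass. Tsc1 and Tsc2 code for the partner proteins of the complex that restrains mTORC1. Tsc1 had 1398, 1401 and 1385 in knockouts against 1486, 1464 and 1516 in controls labelled mPFC, and 1379, 1425 and 1409 in knockouts against 1782, 1782 and 1738 in controls labelled hippocampus. Knockout values were below all controls, with an averaged log2 fold change of −0.21 (SE 0.029, adjusted p = 2.3e-05). As labelled, Tsc1 passed for hippocampus (−0.33, adjusted p = 1.75e-05) and not for mPFC (−0.09, adjusted p = 0.0738). Exchanging the controls gave a call for mPFC (−0.34, adjusted p = 1.43e-05) and none for hippocampus (−0.08, adjusted p = 0.104). Tsc2 had 2777, 2688 and 2469 in knockouts against 2413, 2470 and 2541 in controls labelled mPFC, and 2361, 2459 and 2513 in knockouts against 3093, 2939 and 2676 in controls labelled hippocampus. It overlapped in the first and was lower in the second (−0.25, adjusted p = 0.00348), and its average did not pass (−0.08, adjusted p = 0.132). Tsc2 passed in neither region with the controls exchanged (−0.13, adjusted p = 0.083, and −0.02, adjusted p = 0.823, for mPFC and hippocampus). The annotation places 7.2% of the exon length of Tsc2 on the opposite strand of Pkd1 exons, and no strand setting is given in the sources used here. Nf1, a RAS GTPase activator, had an averaged log2 fold change of 0.10 (adjusted p = 0.0621), and the kinase gene Dyrk1a one of 0.02 (adjusted p = 0.696).

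Of the 4 genes of protein turnover, N-terminal acetylation and miRNA silencing, Naa15 and Trip12 rose, and Cul3 and Tnrc6b did not pass. Naa15 is the ribosome anchor of the acetyltransferase NatA. It had 3365, 3307 and 3876 in knockouts against 2818, 2895 and 2968 in controls labelled mPFC, and 3936, 4005 and 3851 in knockouts against 2850.0, 3082 and 3507 in controls labelled hippocampus. Within each label the groups were apart, and the averaged log2 fold change was 0.30 (SE 0.050, adjusted p = 0.000135). Naa15 did not pass for mPFC with the controls exchanged (0.16, adjusted p = 0.0839). Trip12, a ubiquitin ligase gene, rose by 0.10 in the average, a call lost without any 1 of 5 libraries. Cul3, the ligase scaffold, had 2772, 2697 and 3658 in knockouts and 2841, 2961 and 2972 in controls labelled mPFC. There the highest and the lowest value both came from the knockouts, and the high one was the distant library.

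The difference between the region effects was called for 11 members, 4 higher and 7 lower in hippocampus than in mPFC (33.3% against 24.4% of all tested genes, 11.8% higher and 12.6% lower). The largest were Tbr1 (2.46), Myt1l (0.82), Ank2 (−0.77), Tcf4 (0.69) and Reln (0.52). With the 2 control groups exchanged, 5 members passed against 13.8% of all genes, and none of them was among the original 11 with the same sign. Kdm6b and Tsc1 passed both times with opposite signs (−0.29 and −0.24 as labelled, 0.27 and 0.26 exchanged). Leaving out both distant libraries gave 18 called members, all 11 original ones among them, against 50.3% of all genes. Which regional differences these OPCs have thus cannot be read from the deposited labels.

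Lists of related genes, chosen with earlier results of these data known, were read beside the members in the averaged knockout effect. The shares over all tested genes were 26.9% higher and 27.5% lower. Of 73 tested further autism risk genes, 18 rose and 25 fell, with Rorb (1.60), Hectd4 (0.49) and Nup155 (0.52) higher and Lrrc4c (−0.68) lower in knockouts. The list of RAS GTPase activators and Sprouty and Spred inhibitors, the group of Nf1, had 9 risers and no fallers among 15, with a median of 0.17 against −0.01 over all genes. Its strongest members were the feedback inhibitors Spry4 (0.76), Spry2 (0.74) and Spry1 (0.55) and the GTPase activator Rasa2 (0.58). Partners of Tnrc6b in miRNA silencing rose in 4 of 7 cases and fell in none: Ago2 (0.63), Ago3 (0.47), Dicer1 (0.16) and Tnrc6c (0.12).

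The TSC and mTORC1 list went both ways, with 6 of 19 higher and 4 lower. The stress-induced inhibitors of the pathway split, Ddit4 at −0.62 and Sesn2 at 0.42, while the mTOR subunit gene Mlst8 was at −0.24. Histone methylation writers and erasers had 8 of 28 higher and 7 lower. Kdm5d led them at 1.57 and is one of the Y-linked genes named above, followed by Nsd2 (0.40), Kdm4b (−0.38) and Kdm4a (−0.31). Of 13 postsynaptic scaffold genes other than Shank2 and Shank3, 4 rose and 5 fell, among them Dlg4 (0.25), Homer2 (0.22), Dlgap3 (−0.40) and Dlgap2 (−0.91).

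In cultures, GABA called 3 of 32 in mouse mPFC cultures, all lower (9.38% against 6.55% of all tested genes, 3.18% higher and 3.36% lower), and 11 of 33 in mouse hippocampus cultures, 1 higher and 10 lower (33.3% against 24.7%, 11.9% higher and 12.8% lower). In rat cultures GABA called 5 of 32, 3 higher and 2 lower (15.6% against 23.7%, 11.9% higher and 11.8% lower), and glutamate 6 of 32, 2 higher and 4 lower (18.8% against 28.3%, 14.1% higher and 14.2% lower). Treated and untreated values did not overlap for 9 of 32 members in mPFC cultures and 18 of 33 in hippocampus cultures. Over all tested genes this held for 25.8% and 39.3%. In rat cultures it held for 10 of 32 with GABA and 8 of 32 with glutamate, against 37.2% and 38.8%. Cntnap2, Setd5, Tcf4 and Ank2 were called in more than 1 of these 4 comparisons. Adnp was listed at 127 to 197 in the mouse cultures, against 4654 to 5457 in the acute table and 3154 to 5092 in the rat tables. Its exons share 82.1% of their length with the gene Gm20716 on the same strand, which had no row in any of the mouse tables, and the tables were scaled separately, so Adnp in the mouse cultures is uncertain.

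**Figure D4:**
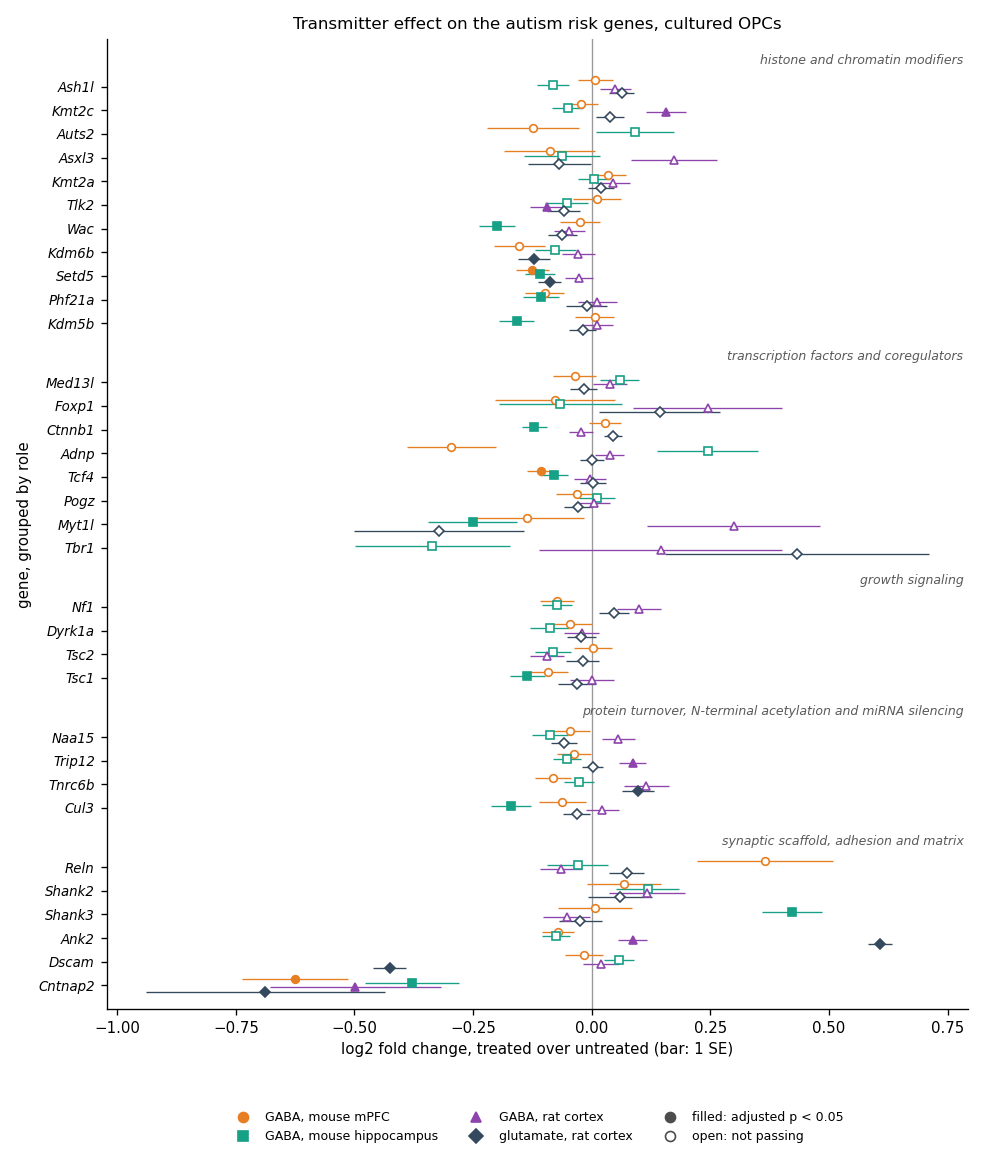
Log2 fold change of each member in 4 culture comparisons, treated over untreated, for GABA in mouse mPFC (orange circles), mouse hippocampus (green squares) and rat cortex (purple triangles) and for glutamate in rat cortex (dark diamonds), with bars of 1 standard error and filled symbols for adjusted p below 0.05. Cntnap2 is filled in all 4 comparisons on the left side, and Ank2 under glutamate lies farthest to the right at 0.61.

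Cntnap2 was lower in all 4 culture comparisons, and it was also lower in both knockout contrasts as labelled. It had 100.4, 84.6 and 88.9 with GABA against 144, 148 and 132 untreated in mouse mPFC cultures (log2 fold change −0.62, SE 0.111, adjusted p = 0.00192). In mouse hippocampus cultures the values were 139.9, 123 and 145 with GABA and 179, 163 and 189.8 untreated (−0.38, adjusted p = 0.00658). The groups were apart in both. The rat levels were low: 36.8, 37.0 and 29.8 with GABA against 53.0, 44.9 and 49.2 untreated (−0.50, adjusted p = 0.0409), and 17.8, 22.6 and 13.8 with glutamate against 39.4, 23.2 and 27.1 untreated (−0.69, adjusted p = 0.0308). The hippocampus call was lost without 1 library (GABA library 2), the rat GABA call without any 1 of 5 of its 6 libraries and the glutamate call without any 1 of 3, and the mPFC call was kept in every such repeat. Summed neuron markers were 7302 to 7648 with GABA against 8213 to 8291 untreated in mPFC cultures, 6993 to 7151 against 7729 to 8130 in hippocampus cultures, 9556 to 9893 against 9291 to 9468 in the rat GABA set, and 9667 to 9895 with glutamate against 11660 to 11930 untreated. The rat GABA table held 15 of the 16 listed markers and the other tables all 16, with none at 0. Their part in the Cntnap2 values was not tested.

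Glutamate moved 2 adhesion and scaffold genes of rat OPCs in opposite directions. Ank2 had 5565, 5483 and 5531 with glutamate and 3608, 3608 and 3663 untreated, a log2 fold change of 0.61 (SE 0.025, adjusted p = 3.93e-34). Dscam had 1268, 1312 and 1251 with glutamate and 1714, 1760 and 1676 untreated (−0.43, SE 0.035, adjusted p = 2.92e-17). Neither gene's groups came near each other, and both calls were kept on leaving out each library in turn. GABA in rat OPCs gave Ank2 values of 2462, 2551 and 2528 against 2369, 2390 and 2345 untreated (0.09, adjusted p = 0.0438) and Dscam values of 1506, 1468 and 1500 against 1469, 1548 and 1404 untreated, which overlapped. That GABA call of Ank2 was lost without any 1 of 4 libraries. The glutamate effect minus the GABA effect was called for these 2 members alone (6.25% against 20.5% of all tested genes), at 0.52 for Ank2 (adjusted p = 9.07e-16) and −0.45 for Dscam (adjusted p = 1.35e-09). Marker sums moved with glutamate too. OPC markers summed to 193600 to 195500 with glutamate and 212100 to 213800 untreated, oligodendrocyte markers (11 of 12 in the table) to 160200 to 162100 with glutamate and 200400 to 202600 untreated, and astrocyte markers (all 12) to 49740 to 49980 with glutamate and 42420 to 42750 untreated. In the rat GABA set, OPC markers summed to 197500 to 199000 with GABA and 200800 to 203300 untreated. Oligodendrocyte markers summed to 220100 to 221500 with GABA and 182200 to 187800 untreated. Astrocyte markers summed to 34230 to 34380 with GABA and 33500 to 33620 untreated. Microglia markers summed to 2201 to 2276 with GABA and 1346 to 1430 untreated. In the glutamate set they summed to 848.1 to 865.9 with glutamate and 655.7 to 726.5 untreated. No marker of these lists in either table was at 0, and their part in the Ank2 and Dscam values was not tested.

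**Figure D5:**
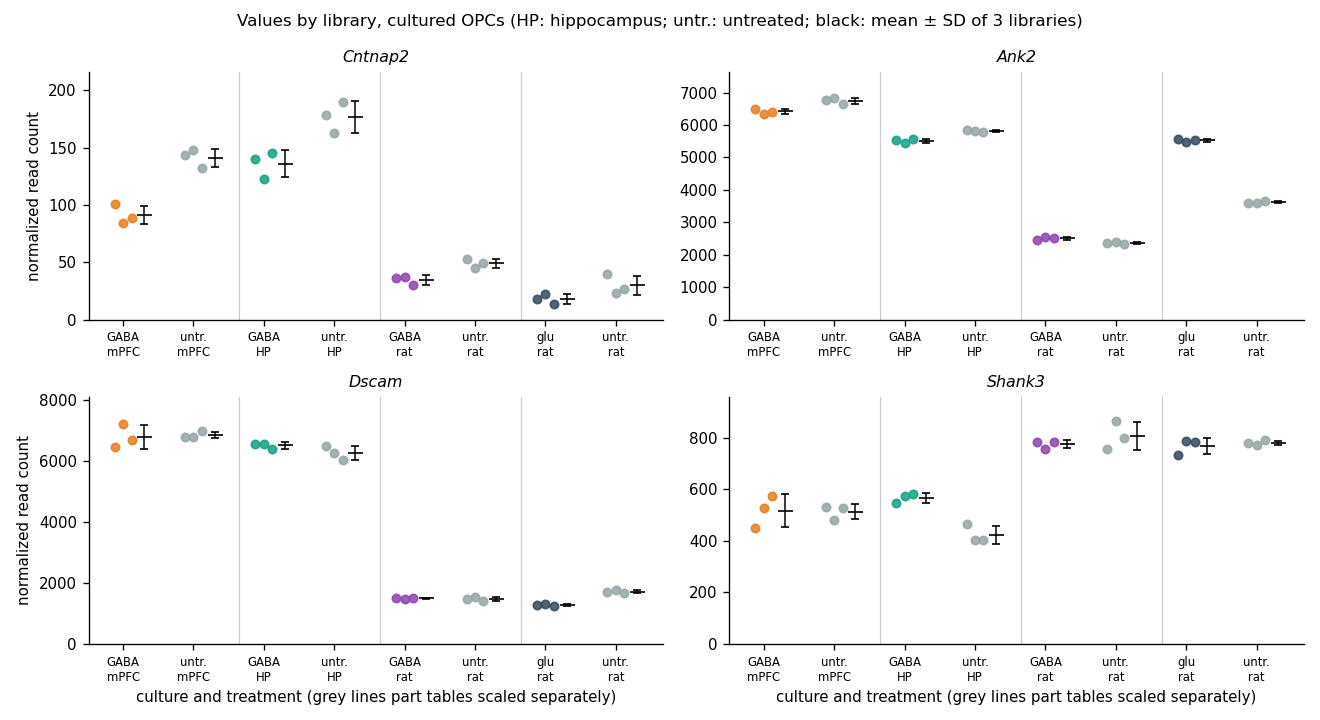
Normalized read counts by library in cultured OPCs for Cntnap2, Ank2, Dscam and Shank3, with each treated group left of its untreated group and grey lines between tables that were scaled separately (points, libraries; black, mean ± SD, n = 3). Ank2 is higher and Dscam lower under glutamate, Cntnap2 is lower under every treatment, and Shank3 is higher under GABA in hippocampus cultures.

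Shank3 was the one member higher under GABA in mouse hippocampus cultures, with 546, 572 and 582 against 464, 404 and 403 untreated and no overlap (log2 fold change 0.42, SE 0.063, adjusted p = 2.48e-05). In mPFC cultures it had 449.9, 528 and 575 with GABA against 531, 481 and 528 untreated, which overlapped. Its difference between the cultures was 0.42 (adjusted p = 0.0298), and Ctnnb1 (−0.15) and Adnp (0.54) were the other members called in that test (9.09% against 4.78% of all tested genes, 2.60% higher and 2.19% lower). Each of these 3 calls was lost without any 1 of 8 of the 12 libraries. Shank2 did not pass under GABA or glutamate in any culture.

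The 10 members that fell under GABA in hippocampus cultures did so by small amounts apart from Cntnap2. Wac, a regulator of histone H2B ubiquitination, had 1796, 1846 and 1861 with GABA against 2101, 2043 and 2178 untreated (−0.20, adjusted p = 0.000417). Kdm5b had 2381, 2324 and 2335 against 2502, 2677 and 2680.0 (−0.16, adjusted p = 0.00272), and Ctnnb1 had 12190, 12300 and 12400 against 13290, 13310 and 13500 (−0.12, adjusted p = 0.00211), with GABA given first. These 3 calls were kept on leaving out each library in turn. Their groups did not overlap, which held for 39.3% of all tested genes.

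Cul3 had 2838, 2555 and 2673 with GABA against 2918, 2945 and 3218 untreated (−0.17, adjusted p = 0.00385), and Tsc1 had 2322, 2342 and 2266 against 2503, 2462 and 2651 (−0.14, adjusted p = 0.00906). Myt1l had 139, 152 and 138 with GABA against 172, 171 and 167 untreated (−0.25, adjusted p = 0.0497). Cul3 was lost without GABA library 2, Tsc1 without GABA library 3 and Myt1l without any of the 6 libraries. The falls of Setd5, Phf21a and Tcf4 lay between −0.11 and −0.08. Setd5 was lost without any 1 of 2 libraries, Phf21a without any 1 of 4 and Tcf4 without any 1 of 5.

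Setd5 also fell in mPFC cultures under GABA, with 5432, 5458 and 5608 against 5844, 6114 and 6039 untreated (−0.12, adjusted p = 0.0397), and in rat cultures under glutamate, with 4812, 4666 and 4867 against 5058, 5037 and 5160.0 untreated (−0.09, adjusted p = 0.00362). Tcf4 fell in mPFC cultures, with 15840, 15490 and 15870 with GABA against 16880, 16980 and 16920 untreated (−0.11, adjusted p = 0.0492). The mPFC calls of both were lost without any 1 of 5 of the 6 libraries. In rat cultures GABA raised Kmt2c, with 1658, 1649 and 1637 against 1487, 1606 and 1356 untreated (0.16, adjusted p = 0.00671), and Trip12, with 5023, 5135 and 4905 against 4672, 4867 and 4650.0 (0.09, adjusted p = 0.0274). Tlk2, a chromatin assembly kinase gene, was lower, with 1634, 1719 and 1616 against 1796, 1741 and 1771 (−0.10, adjusted p = 0.0474), a call lost after median-of-ratios rescaling and without any 1 of 4 libraries. Kmt2c was lost without untreated library 3 and Trip12 without any 1 of 4 libraries.

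Glutamate also lowered Kdm6b in rat cultures, with 1596, 1716 and 1693 against 1868, 1781 and 1795 untreated (−0.12, adjusted p = 0.00372). Tnrc6b passed with overlapping groups, at 2133, 1901 and 2033 with glutamate against 1949, 1889 and 1830.0 untreated (0.10, adjusted p = 0.0242), a call lost without any 1 of 4 libraries. Tsc2, Kmt2a, Kdm5b and Shank3 did not pass in either rat comparison. Reln, the member with the largest averaged knockout effect, had 103, 73.0 and 87.9 with GABA against 67.4, 73.2 and 62.4 untreated in mPFC cultures, 384, 356 and 398 against 378, 399 and 384 in hippocampus cultures, 1077, 1031 and 1105 against 1095, 1201 and 1067 in the rat GABA set, and 1437, 1568 and 1599 with glutamate against 1415, 1446 and 1509 untreated, and it passed in none of them.

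Dyrk1a, Foxp1, Kmt2a, Med13l and Nf1 were tested in all 6 comparisons of 2 groups and passed in none as labelled. Foxp1, a forkhead factor, was listed at 102 to 138 in the acute libraries, and Med13l, a Mediator kinase module subunit gene, at 1209 to 1381. Nf1 passed for hippocampus with the controls exchanged (0.24, adjusted p = 0.00384). Their averaged knockout effects lay between −0.04 and 0.10 on the log2 scale, with standard errors of 0.036 to 0.073, which does not show that they were unaltered.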

How the data were processed

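Poly-A RNA was sequenced as single-end 50-base reads in 36 libraries of 12 groups. The deposited values are a signal: read counts per gene divided by a scaling factor of the library, which were not raw counts. Within a library every value was a whole multiple of 1 step, worth 0.9052 to 1.117. For mouse reads the build was GRCm38.p6, and HISAT, Bowtie2 and DESeq2 are listed as tools without versions, per the submitters' processing notes. No rat build is given there. Totals were 16.63 to 20.31 M per library, and columns of no listed sample numbered 0.

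Each of the 5 tables was fitted once with limma 3.58.1 (R 4.3.3) as limma-trend on log2(value + 1), with its groups and no covariate, on genes with a value of 10 or more in at least 3 libraries. Fold changes on that scale understate changes of low genes. Benjamini-Hochberg adjustment ran over all genes tested, and adjusted p below 0.05 was called. The average of both knockout contrasts and their difference came from the same fit. Differences between cultures came from fits on the joined mouse tables and the joined rat tables, with 15487 and 12675 genes. A planned test of raw counts was replaced by limma because the values were scaled. The fit was tested on simulated data. Control groups were also exchanged between regions, since their labels went against region markers.

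Members and lists were chosen with earlier results of these data known. The lists were further autism risk genes, histone methylation, TSC and mTORC1, RAS GTPase activators and Sprouty, postsynaptic scaffold, reelin pathway, and TNRC6 and Argonaute genes, with markers of cell types and regions. Values by library are printed for up to 8 members per comparison with the largest change among those called without overlap. They are also printed for members whose region effects differed by over 0.5, for members called in opposite directions and for 4 gene pairs. Phf21a, Pogz, Reln in cultures and a few others were added after their values were seen. From each list up to 4 called genes with the smallest p are named. A few genes of these lists are not reported here. Deviations from the group mean correlated at −0.036 to 0.118 between same-numbered libraries of 2 groups. With 3 libraries a group this cannot exclude that the numbers pair samples. The main fits left pairing out because no label states it. Gene positions and exon lengths are from GENCODE M21 and promoter windows from RefSeq. Tables and figures were made with Python 3.11.15, pandas 2.3.3, numpy 2.4.6 and matplotlib 3.10.9.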

Additional observations from a re-analysis of the deposited data

Results flagged for a closer look

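The knockout effect differed between the labelled regions, by the limma test of the difference itself, for 11 members. Hippocampus minus mPFC was 2.46 for Tbr1, 0.82 for Myt1l, 0.69 for Tcf4 and 0.52 for Reln, and −0.77 for Ank2, −0.42 for Auts2, −0.42 for Shank3, −0.35 for Setd5, −0.34 for Tsc2, −0.29 for Kdm6b and −0.24 for Tsc1 on the log2 scale. With the 2 control groups exchanged, none of the 11 was called with the same sign.

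The GABA effect differed between the mouse cultures, by the same kind of test on the joined tables, for Adnp (0.54), Shank3 (0.42) and Ctnnb1 (−0.15), hippocampus minus mPFC. Each of these calls was lost on leaving out any 1 of 8 of the 12 libraries. The glutamate effect differed from the GABA effect in rat cultures for Ank2 (0.52) and Dscam (−0.45), glutamate minus GABA, and both calls were kept without any single library.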

How the results depend on the processing

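Over pseudocounts of 0.1 and 10, no filter on low values, median-of-ratios rescaling, fits on 2 groups only and the replicate block, no called member changed direction. Without the filter, GABA called 1 member in place of 3 in mouse mPFC cultures and 1 in place of 5 in rat cultures, with more genes in the adjustment. The region difference of the knockout effect had 5 called members with the controls exchanged and 18 without both distant libraries, in place of 11. The exchange turned the sign for 13 called values: in the mPFC contrast Asxl3 (−0.034) and Trip12 (−0.045), in the hippocampus contrast Ank2 (0.33) and Kdm6b (0.026), and in the difference Ank2 (0.18), Auts2 (0.18), Kdm6b (0.27), Myt1l (−0.15), Setd5 (0.20), Shank3 (0.21), Tbr1 (−0.66), Tsc1 (0.26) and Tsc2 (0.11). Leaving out 1 library at a time gave 16 to 23 called members for the averaged knockout effect, 16 to 19 for mPFC, 12 to 15 for hippocampus and 11 to 13 for their difference. In cultures it gave 1 to 4 for GABA in mPFC, 5 to 14 in hippocampus, 0 to 5 for their difference, 1 to 8 for GABA in rat, 4 to 8 for glutamate and 2 to 6 for glutamate minus GABA. With the replicate block, 17 members were called for the mPFC knockout, 2 and 11 for GABA in mPFC and hippocampus cultures, 3 for their difference, 7 for GABA and 8 for glutamate in rat cultures and 3 for their difference. Of the 3 knockout libraries labelled mPFC, 2 correlated best with the control of their own number. In each culture comparison within 1 table, 1 of the 3 treated libraries did so. No paired fit was run for the hippocampal knockout contrast, the averaged knockout effect or its region difference. The knockouts labelled hippocampus carry the numbers 4 to 6 and their controls 1 to 3. The planned count test was not run, since the deposited values are scaled. Precision rests on 3 libraries a group, and low genes such as Tbr1 are limited by depth.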
